A study of Mus musculus with 2 samples.

Results

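Nuclei sorted for a label that Slc12a1-expressing cells carry also yielded barcodes with endothelial transcripts, and these barcodes are described here. A barcode was taken as a member when its counts of Flt1, Emcn, Ptprb and Egfl7 summed to at least 4, its counts of Lrp2 and Cubn to at most 4 and its counts of Slc12a3 to at most 2. Of 13563 barcodes called as nuclei in both libraries, 125 met this rule, 94 of 5442 in the cortex library and 31 of 8121 in the medulla library. The comparison barcodes held at least 10 counts of Slc12a1 and none of the 4 endothelial genes, and numbered 4831 in cortex and 7674 in medulla.

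The libraries came from snap-frozen kidneys of male B6 mice of age 12, for which the labels give no unit, and were labelled as cell type Slc12a1+Cells and genotype WT. According to the study's methods, the mice carried a tamoxifen-inducible Cre under the Slc12a1 (NKCC2) promoter and the INTACT reporter, so that recombined TAL nuclei show the nuclear envelope protein Sun1-sfGFP, and both regions share these alleles and the tamoxifen. Nuclei were sorted on a DNA stain and green fluorescence and taken through single-nucleus RNA sequencing with the PIPseq kit. Cortex was the outer strip of the kidney and medulla all that remained, so the medulla portion also holds deep cortex, and each region is 1 library with no replicate. Therefore no test between regions was possible, region and library cannot be told apart, and every interval printed is a 95% interval that covers counting error only. No barcode sequence was shared between the libraries. Total counts were 16457300 in cortex (median 2427 per called barcode) and 20947211 in medulla (median 2430).

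The thick ascending limb (TAL) is the tubule segment that reabsorbs sodium chloride through NKCC2, and it runs beside a dense capillary bed. Kidney endothelium differs by site: glomerular capillaries and peritubular capillaries are fenestrated, arterioles and descending vasa recta are not, and each bed has its own transcripts. Endothelial identity rests on vascular endothelial growth factor (VEGF) and angiopoietin receptors, on junction proteins such as VE-cadherin (Cdh5) and PECAM-1, and on ETS-family transcription factors such as ERG and FLI1.

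The rule genes describe the selection and are not a result. In cortical members Flt1, a VEGF receptor (chr5:147498414-147662826, GRCm39), had 430 counts in 91 of 94 barcodes, and in medullary members 120 counts in 29 of 31. Emcn, the endothelial sialomucin endomucin (chr3:137046794-137138999), had 365 and 122 counts. Ptprb, the phosphatase that acts on the angiopoietin receptor TIE2 (chr10:116111428-116225440), had 210 and 74 counts, and Egfl7, a secreted vascular protein (chr2:26468286-26486789), 77 and 24. The 4 genes together had a median of 11 counts per cortical member (range 4 to 28) and 10 per medullary member (range 4 to 22). Most other barcodes were at 0 (5016 in cortex and 7817 in medulla) or at 1 count (275 and 252), and only 8 and 1 were at 3. The limits on tubule genes left out 27 further cortical and 2 medullary barcodes with at least 4 endothelial counts, whose median Lrp2 and Cubn count was 20 and 39.

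Just inside the threshold, 7 cortical barcodes with 4 endothelial counts held 0 to 35 counts (median 11) of the 23 other genes of a core endothelial list. Just outside it, 6 cortical barcodes with 3 counts and within the tubule limits held 0 to 33 (median 11.5). In medulla the single barcode at 4 held 22 such counts and the single barcode at 3 held 27. Barcodes at 2 counts were lower, with a median of 1 in 19 cortical and 0 in 16 medullary barcodes.

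**Figure D1:**
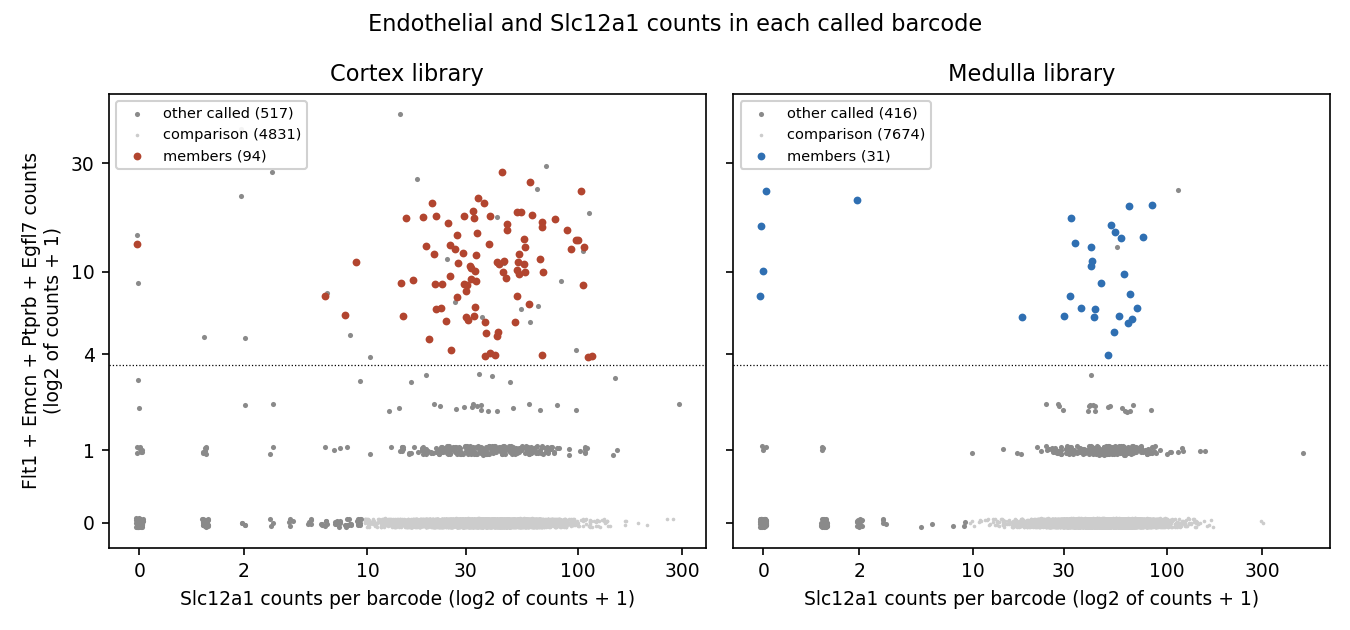
Each point is a called barcode, with Slc12a1 counts on the x axis and the summed counts of Flt1, Emcn, Ptprb and Egfl7 on the y axis (both as log2 of counts + 1, jittered), cortex on the left and medulla on the right; the dotted line marks the minimum of 4. Most coloured members lie at 10 or more Slc12a1 counts (90 of 94 in cortex and 26 of 31 in medulla), and 5 medullary members lie at 0 to 2.

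In the cortex library 1.73% of called barcodes were members (95% interval 1.40 to 2.11), against 0.382% (0.260 to 0.541) of the medulla library, a ratio of 4.52 (2.99 to 7.03). The sort for green nuclei and the barcode calling can set these shares, and their part was not tested. The deposited cluster numbers placed 84 of the 94 cortical members in cluster 9, where they were 38.9% of its 216 barcodes. Medullary members were spread, with 10 in cluster 9, 7 in cluster 1, 5 in cluster 6 and the others in clusters 2, 4 and 5.

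The first question was whether the rest of an endothelial programme accompanied the 4 rule genes. Since the members were chosen by endothelial counts, ratios to the comparison barcodes are given as a description. The 23 core genes outside the rule summed to 2777 counts in cortical members, which is 7552 CPM (7274 to 7839), the count scaled to the total of the same barcodes, against 99.7 CPM in the comparison, a ratio of 75.8 (71.0 to 80.9). In medullary members they summed to 898 counts or 9210 CPM, against 72.3 CPM, a ratio of 127 (117 to 139). Each of the 23 genes had at least 1 count in the members of both libraries. Those with at least 50 counts in a library, 18 in cortex and 14 in medulla, were at a ratio of 2 or more, Esam in medulla with an interval that included 1. The choice of members bears on this direction. Over all genes with at least 50 counts this held for 8.19% of 12960 in cortex and 15% of 12848 in medulla, and the median ratio was 0.951 and 0.882. Here and below, a gene could reach 50 counts through the members themselves, so counts of tested genes describe the lists and support nothing further.

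Meis2, Ldb2, Plpp1 and Tek carried most of these counts. Meis2 encodes a homeodomain transcription factor (chr2:115693062-115896341). It reached 1773 CPM in cortical members (652 counts in 92 of 94 barcodes) and 2072 CPM in medullary members (202 counts in 30 of 31), against 14.8 and 3.85 CPM in the comparison. The ratios were 120 (102 to 141) and 538 (411 to 711). Ldb2, an adaptor of LIM-domain transcription factors (chr5:44592425-44957292), had 380 and 137 counts, at ratios of 102 (83.8 to 124) and 472 (345 to 653). Plpp1, a phosphatase of lysophosphatidic acid and related lipids (chr13:112937278-113005534), had 375 and 105 counts, at ratios of 164 (130 to 210) and 247 (184 to 332). Tek, the angiopoietin receptor TIE2 (chr4:94627291-94763224), had 168 counts in 62 cortical members and 69 in 25 medullary members, at ratios of 149 (106 to 213) and 383 (252 to 590). For all 4 genes the ratio was larger in medulla, where their level in comparison barcodes was also lower.

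The bases just upstream of the main transcription start of these 4 genes are shown because the genes were found together in the same barcodes. Each line gives 150 bases before the start of the GENCODE M39 canonical transcript, on the strand of the gene (GRCm39, Tek chr4:94627141-94627290 plus, Meis2 chr2:115896321-115896470 minus, Ldb2 chr5:44957293-44957442 minus, Plpp1 chr13:112937146-112937295 plus). Capitals mark the letters AGGAAG on either strand, a longer sequence around GGAA, the core that ETS factors bind. Other copies of GGAA, such as those in the Tek and Ldb2 windows, are not marked.
Tek: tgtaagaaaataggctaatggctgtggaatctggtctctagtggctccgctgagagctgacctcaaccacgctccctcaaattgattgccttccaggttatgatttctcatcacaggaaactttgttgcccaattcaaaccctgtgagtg
Meis2: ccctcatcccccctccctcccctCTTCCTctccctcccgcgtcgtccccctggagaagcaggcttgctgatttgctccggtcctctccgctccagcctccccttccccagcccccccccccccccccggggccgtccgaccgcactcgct
Ldb2: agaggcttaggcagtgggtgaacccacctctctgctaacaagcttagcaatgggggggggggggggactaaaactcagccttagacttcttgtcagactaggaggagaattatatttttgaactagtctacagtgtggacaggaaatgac
Plpp1: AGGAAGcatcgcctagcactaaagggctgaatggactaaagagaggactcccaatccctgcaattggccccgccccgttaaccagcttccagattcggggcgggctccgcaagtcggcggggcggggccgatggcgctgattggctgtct
The full AGGAAG letters stood in this window of Meis2 and of Plpp1 and not in those of Tek and Ldb2. In windows from 250 bases before to 50 bases after the start, they occurred in 17 of the 27 core genes (63.0%), Flt1, Emcn, Ptprb and Egfl7 among them, and in 34.4% of 21770 promoters of protein-coding genes. A match is a description of the sequence and not a binding site.

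The other core genes differed in size. Adgrl4, an adhesion receptor of endothelium, had levels of 549 and 605 CPM in members from cortex and medulla, at ratios of 188 (134 to 269) and 236 (159 to 351). Eng, the coreceptor endoglin of BMP and TGF-beta ligands, was at ratios of 106 (74.6 to 152) and 364 (195 to 702). Pecam1 was at 40.3 (31.1 to 52.4) and 72.0 (49.8 to 102), and Cdh5, with 16 and 9 counts, at 21.7 (11 to 41.6) and 150 (55.8 to 387). Esam and Vwf stood lower. Esam, an adhesion molecule that was also counted in TAL barcodes (12.4 and 30.8 CPM), was at 2.19 (1.03 to 4.12) and 2.00 (0.731 to 4.38). Vwf, von Willebrand factor of larger vessels, had 1 count in each library.

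**Figure D2:**
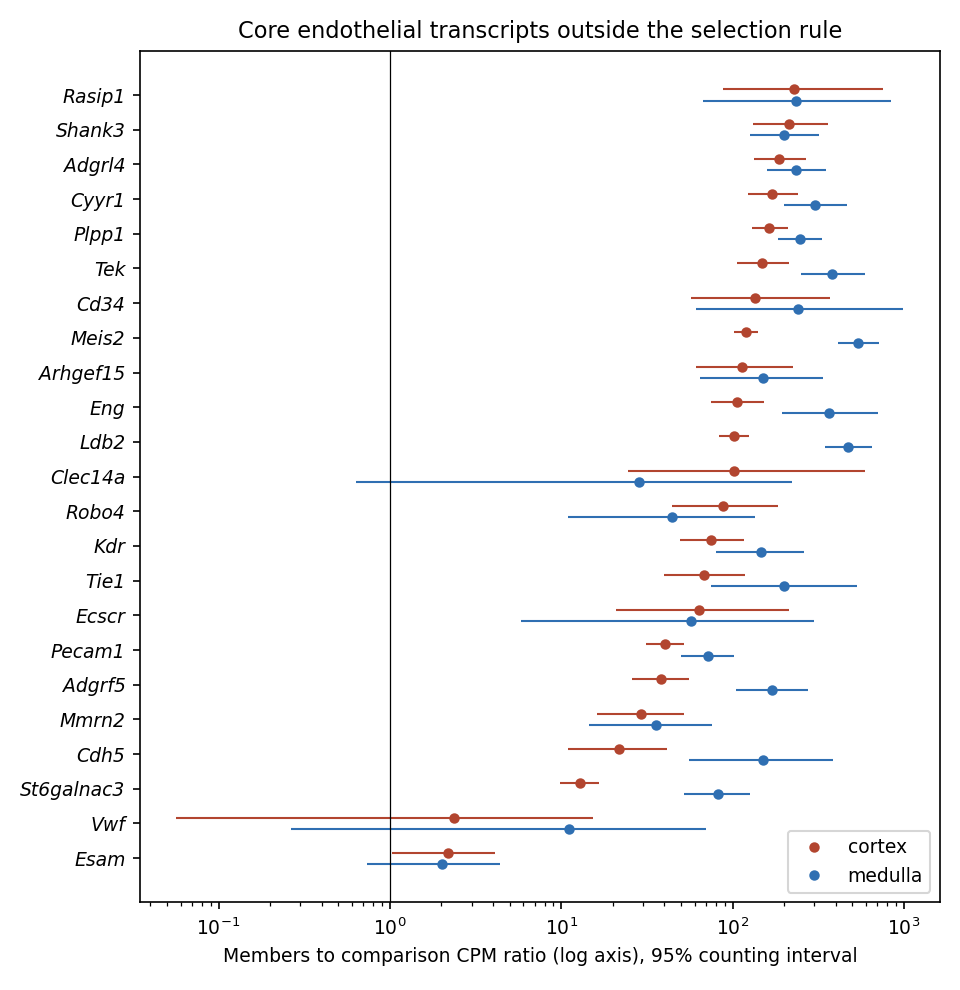
Ratio of CPM in members to CPM in comparison barcodes for the 23 core endothelial genes outside the rule (log axis, cortex red, medulla blue), with lines for the 95% counting interval. Most genes lie between 10 and 1000, and Esam, at 2.19 and 2.00, and Vwf, with 1 count in each library, lie nearest to 1.

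In single members the core genes were found together. A cortical member held a median of 10.5 of the 23 genes (range 0 to 16) and 30 core counts (range 0 to 72), and a medullary member 11 genes (5 to 15) and 31 counts (10 to 57). At least 3 core genes were counted in 93 of 94 cortical and 31 of 31 medullary members. In comparison barcodes the same held for 36 (0.745%, 0.522 to 1.03) and 12 (0.156%, 0.0808 to 0.273). The cortical member without any core count held 3 Ptprb and 1 Egfl7 counts beside 39 of Slc12a1.

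Shares of barcodes with a count were compared at equal depth too. Tek was found in 66.0% of cortical and 80.6% of medullary members and in 0.869% and 0.443% of comparison barcodes. Barcodes with at least 20 counts of Lrp2 and Cubn and at most 2 of Slc12a1, a proximal tubule class that should lack Tek, held it in 3 of 12 in cortex (median 6353 counts per barcode) and 0 of 29 in medulla (median 5566), where 0 allows up to 10.3%. After thinning every barcode to 1000 counts, Tek remained in 26.6% (18.0 to 36.7) and 41.9% (24.5 to 60.9) of members, in 0.331% and 0.222% of comparison barcodes and in 0 of 12 and 0 of 29 proximal tubule barcodes, where 0 allows up to 25% and 10.3%. Meis2 remained in 84.0% and 80.6% of thinned members against 0.994% and 0.405% of the comparison. In the proximal tubule class it was in 4 of 12 cortical barcodes, in 1 of 12 after thinning, and in 0 of 29 medullary ones. Other core genes were found there too in cortex, Adgrl4 in 6 of 12 and 0 after thinning, and Cyyr1 in 5 of 12 and 2 after thinning. Thinning left out 23 medullary comparison barcodes and no member.

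A ranking of 2383 genes with at least 10 counts in the members of both libraries, by the smaller lower bound of the 2 ratios, was led by Adgrl4, Plpp1, Shank3, Cyyr1 and Zfp366. Of its first 20 genes, 8 were of the core list and 12 were not. Among the latter, several encode signalling regulators. Arap3, which acts on Arf proteins, was at ratios of 165 (93.0 to 311) and 555 (251 to 1351). Rasgrp3, an activator of Ras and Rap, was at 140 (83.5 to 247) and 732 (380 to 1523), and Fgd5, an activator of Cdc42, at 112 (73.0 to 175) and 278 (158 to 497). Shank3, a scaffold protein in the core list, was at 213 (132 to 362) and 200 (126 to 318). Surface and secreted proteins followed, with the capillary mucin Cd300lg at 239 and 165, the butyrophilin-like Btnl9 at 295 and 222 and the metalloprotease Tll1 at 123 and 182. Ifi203 (147 and 283) and Ifi44 (146 and 266) belong to interferon-induced genes. The others were Zfp366, Ushbp1, Exoc3l2 and Lrrc3b, at ratios between 120 and 430.

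Receptors of endothelial growth factors were high, while their ligands had few counts or were near the comparison. Of the VEGF receptors and coreceptors outside the rule, Kdr, the main signalling receptor, was at ratios of 75 (49.3 to 116) and 146 (80.5 to 263). Flt4 was at 76.1 and 200 and Nrp2 at 31.8 and 160. Nrp1 was also counted in the comparison at 152 and 252 CPM, and its ratios were 3.76 (3.25 to 4.34) and 2.52 (1.93 to 3.24). Vegfa, the ligand, which the TAL expresses itself, had 52 and 18 counts in members at ratios of 0.793 (0.591 to 1.04) and 0.746 (0.442 to 1.18). Of 4 VEGF ligands tested, 1 in cortex and 2 in medulla were at 2 or more (8.19% and 15% of all genes), Vegfc and Vegfd, from 2 to 3 counts in members. In the angiopoietin list Tie1 was at 67.8 and 200, while Angpt1, a ligand, was at 0.683 (0.389 to 1.11) and 3.19 (1.03 to 7.53) with 16 and 5 counts. Of the Notch list, 1 of 4 tested genes in each library was at 2 or more, beside 8.19% and 15% of all genes, too few genes to read a difference from. This was Notch1, at 6.08 and 11.3, and Notch4, below 50 counts in the libraries, was at 33.0 (14.4 to 74.3) and 62.4 (17.9 to 178). Hes1 and Rbpj were at 0.998 and 0.787 in cortex and 0.806 and 0.730 in medulla.

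Transcription factors of endothelium were mostly high, with 11 of 13 tested genes at 2 or more in cortex and 10 of 12 in medulla, beside 8.19% and 15% of all genes tested. Erg was at ratios of 36.1 (22.2 to 58.4) and 124 (64.8 to 231), and Fli1 at 32.5 (25.5 to 41.4) and 56.8 (37.9 to 83.3). Epas1, the hypoxia-inducible factor HIF-2 alpha, was at 16.5 and 31.0. Tcf4, at 3.18 and 3.37, was also counted in the comparison at 361 and 405 CPM. Mecom and Nr2f2 were the tested genes of this list below 2, at 0.881 (0.837 to 0.928) and 0.936 (0.717 to 1.20) in cortex and 0.647 and 0.828 in medulla. Both were counted in TAL barcodes, Mecom at 4671 and 5610 CPM.

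Of tested junction genes, 7 of 8 in cortex and 4 of 6 in medulla were at 2 or more, and of vasoactive genes 4 of 5 and 3 of 3, beside 8.19% and 15% of all genes. Podxl, a sialomucin of endothelium and podocytes, was at 45.9 and 200. Nos3, the endothelial nitric oxide synthase, had 22 and 5 counts, at ratios of 93.0 (41.2 to 230) and 999 (112 to 47240), the latter against a single count in the comparison. Calcrl, the receptor for adrenomedullin, was at 23.1 (18.5 to 28.8) and 36.8 (24.6 to 53.6), and Ednrb, the endothelin B receptor, at 90.8 and 220. Edn1, which encodes endothelin 1, and Ace, the angiotensin-converting enzyme, had 0 counts in cortical members and 1 in medullary members. F11r, a junctional adhesion molecule of epithelium too, was at 1.85 (1.26 to 2.64) in cortex and had 0 counts in medullary members, against 26.6 CPM in the comparison. Of 10 basement membrane genes, 5 of 10 tested in cortex and 7 of 9 in medulla were at 2 or more, beside the same 8.19% and 15%. Lama4, an endothelial laminin chain, was at 21.1 and 65.1, while Lamb1, which the comparison held at 596 and 357 CPM, was at 0.790 and 0.805. Claudin 5 (Cldn5) had no count in members, where 0 allows up to 8.16 CPM in cortex and 30.8 CPM in medulla.

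The second question was which vascular bed the transcripts came from. Lists for the beds share genes with the TAL, so single genes are given. Of fenestrated capillary genes, Plvap, the protein of fenestral diaphragms, had 71 counts in 40 of 94 cortical members and 12 in 9 of 31 medullary members, at ratios of 67.6 (45.2 to 102) and 109 (49.1 to 230). Npr3 (31 and 6 counts) and Igfbp3 (53 and 7) were at 53.6 and 34.8 in cortex and 54.5 and 53.8 in medulla. Nr2f2 and Cd36 of this list were near 1 in both libraries, and Gas6 was at 1.71 and 1.01. Of glomerular capillary genes, Ehd3 (38 and 8 counts) was at 24.5 (15.9 to 37.5) and 30.2 (12.4 to 63.8). Hecw2 (95 and 25) was at 21.8 and 43.1, and Nostrin (22 and 6) at 36.4 and 85.6. Gata5 was at 0 in both, and Mapt, which the TAL expresses, at 0.710 and 0.201. In cortex 43 members had a count of Ehd3, Plat, Nostrin or Tbx3, 78 had one of Plvap, Npr3, Igfbp3 or Igfbp5, and 38 had both, where the product of both shares gives 35.7. In medulla 12 had the former, 19 the latter and 8 both, where it gives 7.35. With at least 2 counts of each, 12 cortical and 2 medullary members had both, where the products are 10.6 and 0.871. The former set left out Hecw2, which was counted in 55 of 94 cortical and 16 of 31 medullary members. The latter held Igfbp5, which the comparison had at 40.5 and 12.3 CPM. These numbers depend on that choice of genes, so the sizes of the sets cannot be compared.

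Genes of the arterial list below 20 CPM in the comparison of both libraries had 73 counts in cortical and 26 in medullary members. Such fenestrated capillary genes had 155 and 25. Efnb2, an arterial ephrin, had 46 and 10 counts at ratios of 43.8 (28.0 to 68.6) and 23.0 (10.6 to 44.3), and Sox17 13 and 4 counts. Gja5 had 3 and 0 counts, and Hey1 had none. Of the descending vasa recta list, the urea transporter gene Slc14a1 had 0 counts in cortical and 1 in medullary members and Aqp1 6 and 0, while Tm4sf1 had 15 in each. Scin, the most abundant of this list, had 60 and 26 counts and was counted in the comparison at 139 and 435 CPM. Of the 7 genes of the lymphatic list, Lyve1, Pdpn, Mmrn1 and Ccl21a were at 0 in both libraries. Flt4, which fenestrated capillaries also express, had 24 and 6 counts. Prox1, which was counted in comparison barcodes at 25.2 and 166 CPM, had 15 and 7, at 1.62 (0.896 to 2.70) and 0.432 (0.173 to 0.890), and Reln 6 and 0. The list summed to ratios of 2.88 (2.08 to 3.91) and 0.717 (0.381 to 1.23).

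The defining markers of several other kidney cells were at 0, while some lists lay above the comparison. The podocyte genes Nphs1 and Wt1 were at 0 in the members of both libraries. The podocyte list summed to 155 and 113 CPM against 45.9 and 14.2 CPM in the comparison, ratios of 3.37 (2.53 to 4.43) and 7.93 (3.91 to 14.4), of which Thsd7a (34 and 8 counts) and Synpo (21 and 3) made nearly all. Of 12 stromal and mural genes, 4 in cortex and 10 in medulla were at 0, Col1a1, Col3a1, Dcn and Acta2 in both. Pdgfrb had 1 and 0 counts and Meis1, the most abundant, 19 and 7. The stromal list was at 1.73 (1.18 to 2.45) and 2.05 (0.932 to 3.90). Of 9 immune genes, 4 and 8 were at 0, Ptprc had 1 and 0 counts, and the list held 16 counts and 1 count, at 1.48 (0.837 to 2.43) and 0.398 (0.0101 to 2.23). Proximal tubule genes outside the rule summed to 192 counts in cortical members (522 CPM) and 2 in medullary members (20.5 CPM), 0.276 and 0.0732 of the comparison. The limit on Lrp2 and Cubn bears on this ratio. Distal tubule genes outside the rule had 65 and 6 counts, at 0.634 (0.488 to 0.810) and 0.911 (0.334 to 1.99), under the limit on Slc12a3. Principal cell genes had 13 counts and 1 count, at 1.13 and 0.706, intercalated cell genes 4 and 0 counts, and thin limb genes 7 and 2, at 0.879 and 1.32. The part of these transcripts in the endothelial values was not tested.

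The third question was how many members also held TAL transcripts. In cortex 90 of 94 members (95.7%, 89.5 to 98.8) had at least 10 Slc12a1 counts, 3 had 6 to 9 and 1 had none. In medulla 26 of 31 (83.9%, 66.3 to 94.5) had at least 10 and 5 had 0 to 2. The median was 36 Slc12a1 counts in cortical members (range 0 to 119) and 37 in the comparison (10 to 265). In medulla it was 43 (0 to 84) and 49 (10 to 310). Umod and Egf, which encode the TAL proteins uromodulin and epidermal growth factor, had 1014 and 3846 counts in the 90 cortical members with at least 10 Slc12a1 counts, and 300 and 632 in the 26 medullary ones. Across members, Slc12a1 and core endothelial counts had a Spearman correlation of 0.00237 in cortex (n = 94) and -0.201 in medulla (n = 31).

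Members were also deeper than the comparison. The median total was 3483.5 counts in cortical members (quartiles 2881 and 4380) and 2388 in comparison barcodes (1936 and 3029), 1.46 times as much. In medulla it was 3250 (2456 and 3914) and 2422 (2053 and 2812), 1.34 times as much. Genes per barcode had medians of 2036 and 1439 in cortex and 1923 and 1419 in medulla. Scrublet, which scores likeness to simulated mixtures of nuclei, marked 9 of 94 cortical members (9.57%) and 6.11% of the comparison at its automatic threshold. That threshold marked 2 barcodes in medulla, and of the 5% with the highest scores there none was a member. The median score was lower in cortical members (0.0396) than in the cortical comparison (0.0533), and was 0.0858 in both classes in medulla. A nucleus with both programmes and more than 1 nucleus behind a barcode cannot be told apart from these counts.

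The 5 medullary members with at most 2 Slc12a1 counts were shallow. Their totals were 1006, 1386, 1680, 1182 and 1495 counts, all below the lowest of the other 26 (1898). They held 34, 40, 53, 32 and 57 core counts, from 11 to 13 of the 23 genes, and no Umod count and a single Egf count between them. The core list was at 32005 CPM (27879 to 36570) in these 5 and at 7515 CPM (6961 to 8101) in the 26 others, while the counts per barcode had medians of 40 and 26.5. All 5 lay in deposited cluster 9. In cortex the single member without Slc12a1 had 2672 total and 36 core counts. The lowest total of any called barcode was 1268 in cortex and 955 in medulla, and 2 of the 5 medullary barcodes (1006 and 1182) lay below the lowest total called in cortex.

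**Figure D3:**
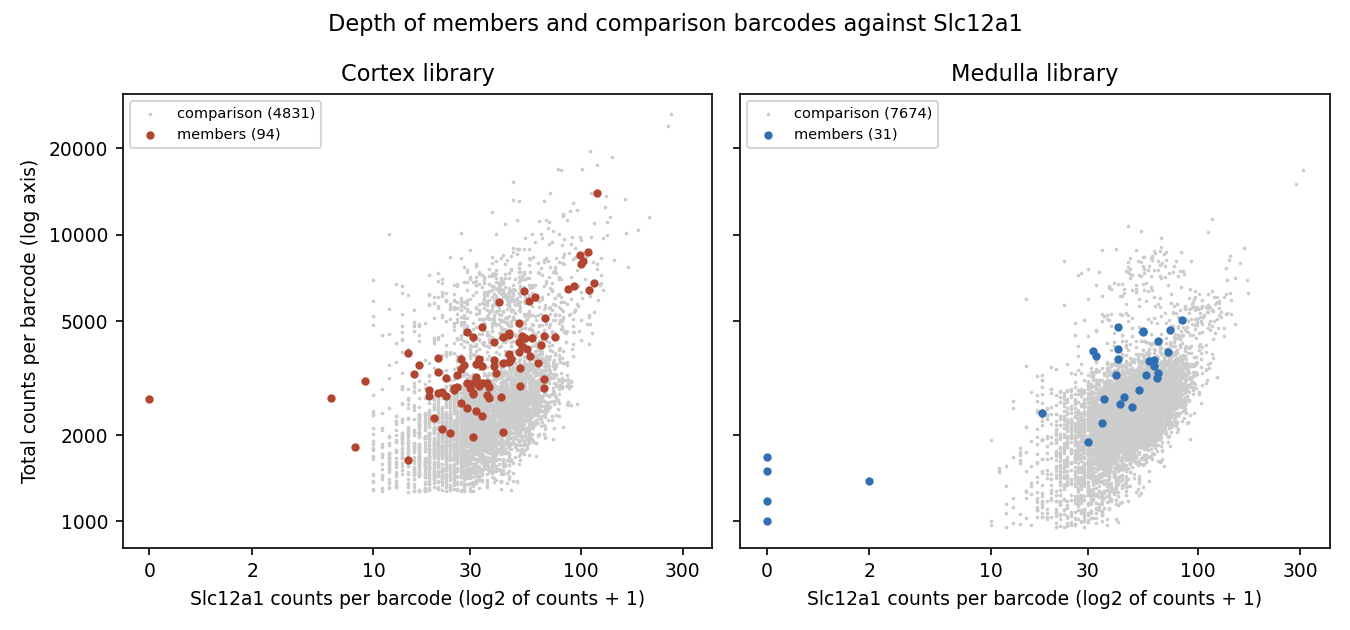
Total counts per barcode (y, log axis) against Slc12a1 counts (x, log2 of counts + 1) for members in colour and comparison barcodes in grey, cortex left and medulla right. Members with Slc12a1 lie mostly in the upper part of the grey cloud, and the 5 medullary members with at most 2 Slc12a1 counts lie between 1006 and 1680.

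The fourth question was which TAL types the members with at least 10 Slc12a1 counts held. TAL cells differ by paracellular claudin: claudin 10 type cells pass sodium and claudin 16 type cells calcium and magnesium, and macula densa cells sense chloride. Both regional scores are those of the study, and the claudin lists hold genes that the study names, chosen on these libraries, so their direction is not independent evidence. The macula densa list was put together here around Nos1, with earlier results of these data known. The claudin 10 type list was at 2372 CPM in the 90 cortical members and 3246 CPM in the comparison, a ratio of 0.731 (0.682 to 0.782), with Ptger3, a prostaglandin E2 receptor, and Cldn10 the lowest of its genes (0.441 and 0.513). Wnk4 (0.715) and Kcnma1 (0.711) were also lower. Stk39 at 0.914 (0.808 to 1.03), Slco3a1 at 0.889 (0.775 to 1.02) and Avpr2 at 1.42 (0.512 to 3.15) had intervals that included 1. In the 26 medullary members the list was at 0.751 (0.668 to 0.843), with Wnk4 at 0.999, Slco3a1 at 1.07 and the other genes at 0 to 0.675. The claudin 16 type list was at 1.11 (1.05 to 1.17) and 1.28 (1.11 to 1.47). Its most abundant gene Wnk1, a kinase found in many cell types, was at 1.13 and 1.83, and in medulla Cldn16 was at 0.590 (0.160 to 1.51) with 4 counts. Without Wnk1 the list was at 1.09 (1.01 to 1.17) and 0.963 (0.782 to 1.17), and with the members' tubule limits on the comparison the full list in cortex was at 1.03 (0.974 to 1.08). In these 90 and 26 members Slc12a1 itself, a rule gene, was at 0.820 and 0.729. Relative to Slc12a1 counts, the claudin 10 list was at 0.892 (0.832 to 0.954) and 1.03 (0.916 to 1.16) and the claudin 16 list at 1.35 (1.28 to 1.42) and 1.76 (1.53 to 2.01).

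Macula densa transcripts were lower in cortical members. The list (Nos1, Pappa2, Ptgs2 and Avpr1a) was at 69.9 CPM against 432 CPM, a ratio of 0.162 (0.105 to 0.239), and against comparison barcodes of matched depth at 0.367 (0.236 to 0.547). Nos1, the neuronal nitric oxide synthase of the macula densa, reached 2 counts in 3 of 90 cortical members (3.33%, 0.693 to 9.43) and in 13.0% (12.0 to 14) of the comparison. In medullary members the list had no count, where the limit of 3 counts is 33.1 CPM for the 26 with at least 10 Slc12a1 counts and 30.8 CPM for all 31, against 40.7 CPM in the comparison. The conditional binomial interval, a wider limit, ended at a ratio of 1.00 and 0.931.

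**Figure D4:**
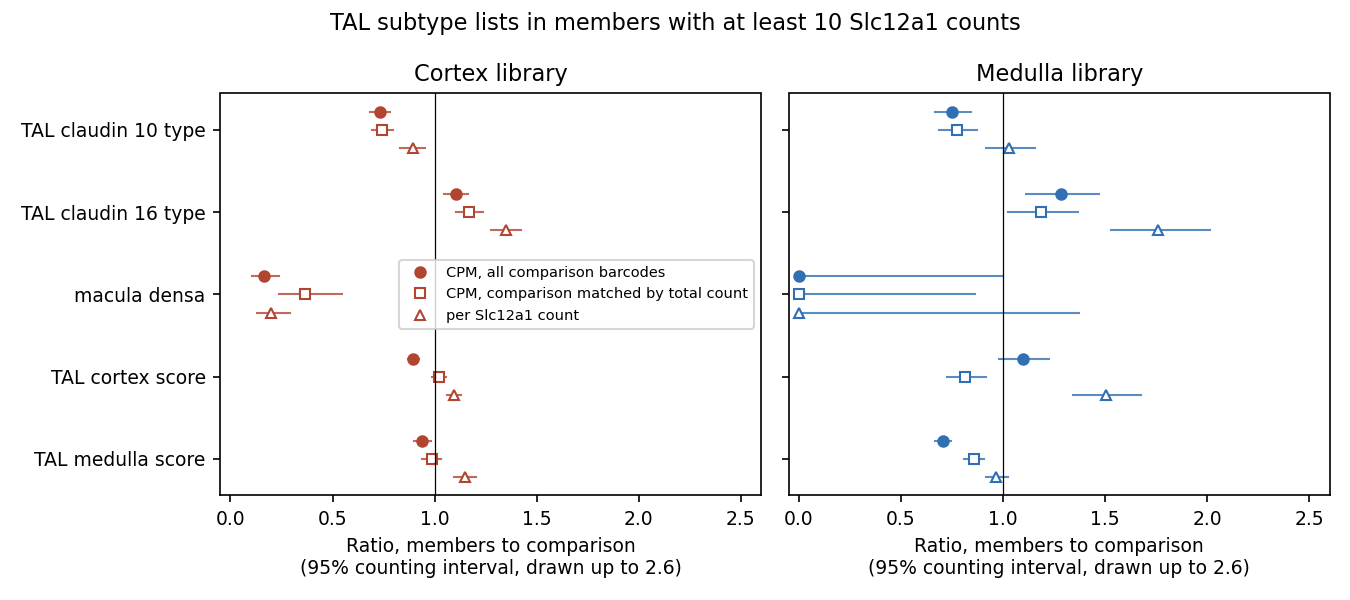
Ratio of summed transcripts in members with at least 10 Slc12a1 counts to comparison barcodes for 5 TAL lists (x axis, lines for 95% counting intervals), cortex left and medulla right, by CPM, against depth-matched comparison barcodes and per Slc12a1 count. The macula densa list in cortex lies lowest under each scaling (0.162, 0.367 and 0.198), and both regional scores cross 1 between scalings in at least 1 library.

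The study's regional score genes were in sum higher in the members of their own region. These genes were chosen on these libraries, and most members held TAL transcripts, so this direction is not independent evidence. The study's cortical TAL score genes reached 10922 CPM in the cortical members and 3456 CPM in the medullary ones, beside 12317 and 3189 CPM in the comparison. The medullary score genes were at 5186 and 13230 CPM, beside 5576 and 19751. Pde10a of the cortical score was 6.67 times as high in cortical as in medullary members (3.92 to 12.3) and 6.97 times in the comparison, and Ranbp3l of the medullary score 0.120 (0.0899 to 0.159) and 0.129. Single score genes departed from the comparison of their library: 9530026P05Rik was at a ratio of 4.69 (3.60 to 6.01) to it in medulla, and Apbb2 at 2.27 (2.05 to 2.50) in cortex.

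The last comparison was between cortical and medullary members, which the same rule chose. The core list outside the rule was at 7552 and 9210 CPM, a cortex to medulla ratio of 0.820 (0.760 to 0.885). Among members with at least 10 Slc12a1 counts it was 0.985, and among those with at most 2 it was 0.421, from 1 cortical and 5 medullary barcodes. Of 12050 genes tested in members, 8.99% were at a ratio of 2 or more and 15.9% at 0.5 or less. Of 356 genes at a ratio of 4 or more to the comparison in at least 1 library and with at least 20 counts in all members, 6 were higher in cortical and 45 in medullary members by an interval that left out 1. By the same interval rule 4.69% and 5.46% of 4816 genes with at least 20 counts in members were higher in cortex and in medulla. A gene could enter the 356 through the library in which it was high, as 6 of the 8 genes named for medulla below did through medulla and Ctnna3 and H2-K1 through cortex, so these counts are a description. Of 245 genes at 4 or more in both libraries, 3 and 32 were higher. Counted per core endothelial count instead of by CPM, the numbers were 14 and 14 of the 356, and 9 and 7 of the 245. Among members with at least 10 Slc12a1 counts, more than 6 genes were higher in cortical members and fewer than 45 in medullary members.

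The genes higher in cortex included Ctnna3, H2-K1, Sema6a, Igfbp5 and Tshz2, of which the first pair entered only through cortex. H2-K1, a class I histocompatibility gene, had 69 and 9, at 2.03 (1.01 to 4.63), and Ctnna3, an alpha-catenin, 55 and 3, at 4.86 (1.58 to 24.3). Igfbp5, a binding protein of insulin-like growth factors listed for fenestrated and venous endothelium, had 141 and 23 counts, at 1.63 (1.04 to 2.65). Sema6a was at 1.98 (1.19 to 3.51) and Tshz2 at 1.43 (1.09 to 1.90). Per core count the ratios of these genes were 1.74 to 5.93. In comparison barcodes, too, Igfbp5 (40.5 and 12.3 CPM), Sema6a (72.0 and 16.6 CPM) and Tshz2 (29.4 and 6.26 CPM) were higher in cortex, by larger factors than in members. Relative to the comparison of their own library, Igfbp5 (9.47 and 19.1), Sema6a (4.80 and 10.5) and Tshz2 (30.9 and 102) were higher in medullary members.

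The 8 genes furthest toward medulla were Eln, Cdh13, Plcl2, Tm4sf1, Pik3c2b, Tpst2, Zfp143 and Gm6213, of which all but Tm4sf1 and Gm6213 entered only through medulla. All 24 medullary Eln (elastin) counts lay in a single barcode of 4566 counts, which also held 16 of the 25 Cdh13 counts, 4 of the 5 Fbln5 counts and 3 of 3 Mgp, genes of larger vessels, beside 55 of Slc12a1 and none of Flt1, Emcn, Plvap or Acta2. Tm4sf1, a membrane protein of endothelium, was spread over 12 cortical and 9 medullary members, at 40.8 and 154 CPM, a ratio of 0.265 (0.121 to 0.582). Per core count it was 0.323 (0.147 to 0.710). Plcl2 (0.265), Pik3c2b (0.289), Tpst2 (0.309) and Zfp143 (0.324) had 9 to 12 counts in medulla and were also counted in comparison barcodes. Outside this ranking Adgrf5, an adhesion receptor of the core list, was at 155 and 349 CPM, at 0.445 (0.286 to 0.701), and per core count at 0.542 (0.348 to 0.855).

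By bed, lists were summed over genes below 20 CPM in the comparison of both libraries, a limit set after the values were seen. Plvap, Npr3 and Igfbp3 summed to 422 CPM in the cortical members and 256 CPM in the medullary ones, 1.64 times as much (1.07 to 2.62), and per core count 2.00 times (1.31 to 3.19). By CPM each gene alone had an interval that included 1, with Plvap at 1.57, Npr3 at 1.37 and Igfbp3 at 2.01. Per core count, Plvap at 1.91 (1.03 to 3.88) and Igfbp3 at 2.45 (1.11 to 6.38) had intervals that left out 1. Npr3 at 1.67 (0.687 to 4.90) had one that included 1. In comparison barcodes Plvap (2.53), Npr3 (1.39) and Igfbp3 (3.10) were at cortex to medulla ratios above 1 as well, and relative to the comparison Plvap and Igfbp3 were higher in medullary members. The 7 glomerular genes were at 479 and 462 CPM, at 1.04 (0.744 to 1.47), and the 9 arterial genes at 199 and 267 CPM, at 0.745 (0.470 to 1.21), intervals that include 1. Of the 26 medullary arterial counts, 4 of Fbln5 and 3 of Mgp lay in the single barcode that held all medullary Eln counts. The 4 descending vasa recta genes were at 59.8 and 174 CPM, at 0.343 (0.174 to 0.688), and 15 of their 17 medullary counts were Tm4sf1.

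**Figure D5:**
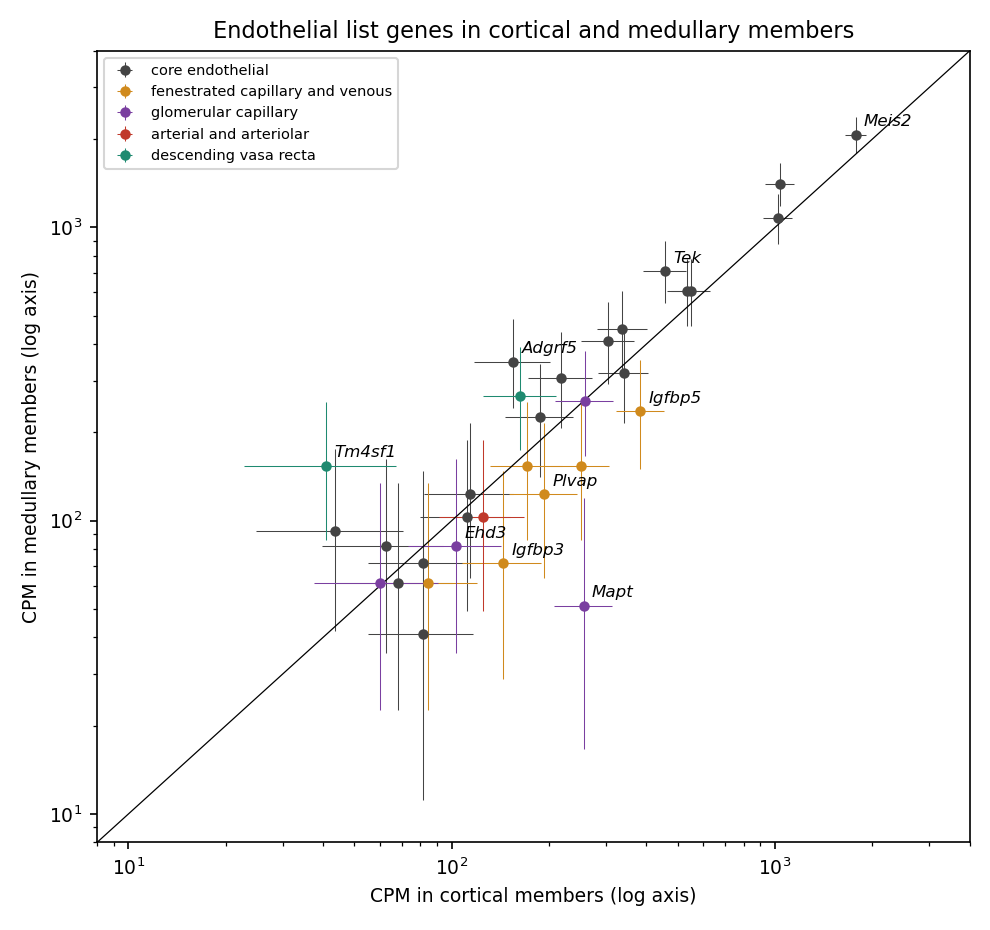
CPM in cortical members (x) and medullary members (y), both on log axes, for 32 genes of 5 endothelial lists with at least 20 counts in both together, the rule genes left out; bars are exact 95% Poisson intervals and the line marks equality. Most core genes lie near the line, with Adgrf5 above it (155 and 349 CPM) and Robo4 below (81.6 and 41.0 CPM); Tm4sf1 lies above it, and Igfbp3, Igfbp5 and Mapt below.

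Endothelial transcripts also lay outside called barcodes. In barcodes that were not called and had at most 200 counts, the core list was at 574 CPM in cortex (547 to 602) and 244 CPM in medulla (224 to 265). Over all called barcodes it was at 355 and 124 CPM, and in comparison barcodes at 99.7 and 72.3 CPM. Slc12a1 was at 13444 and 21533 CPM in the uncalled barcodes and at 12770 and 19234 CPM over all called ones.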

How the data were processed

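Single-nucleus RNA sequencing of 1 cortex and 1 medulla library was analysed. The authors deposited raw and filtered matrices of counts per gene and barcode, made with PIPseeker on GRCm39 before their doublet, background and normalisation steps; the submitters' processing notes also name bcl2fastq and Seurat 4.4.0. The filtered barcodes were used as called, with the deposited cluster numbers. Counts were summed over members and over comparison barcodes and scaled to CPM. Ratios have 95% conditional binomial intervals, levels exact Poisson and shares Clopper-Pearson intervals; a count of 0 was given a limit of 3 counts. These cover counting error only, and with 1 library per region no test was made. Genes with at least 50 counts in a library entered counts of genes, and a ratio of 2 or 0.5 was the limit. Scrublet (scanpy 1.11.5), scipy 1.17.1 and Python 3.11.15 were used, and interval coverage was tested on simulated data. Barcodes were not removed as doublets in the values reported.

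The members and gene lists were chosen with earlier results of these data known. Genes named were the rule genes, the core list, the 20 genes with the highest smaller lower bound of both ratios, and up to 8 genes in each direction between regions. From each list, the 2 to 4 most abundant genes were planned, but the genes named did not always follow abundance. Other genes were named after their values were seen, and a few items are not reported here. Gene coordinates and promoters are from GENCODE M39 on GRCm39. Alternatives were other endothelial minimums, quality limits, doublet removal, depth-matched or stricter comparison barcodes, other scalings and other gene minimums.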

Additional observations from a re-analysis of the deposited data

Results flagged for a closer look

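Barcodes outside the called set were not part of the comparisons, and some of them met the endothelial rule. In cortex there were 5 such barcodes, with 399 to 1155 total counts and 7 to 11 core endothelial counts, and 3 of them held at most 2 Slc12a1 counts. In medulla there were 5, with 377 to 658 total counts and 7 to 22 core counts, and all 5 held at most 2 Slc12a1 counts. The lowest totals among called barcodes were 1268 and 955. There is no control library to set these numbers against.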

How the results depend on the processing

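No paired analysis was possible because each region is 1 library with no replicate and no test was made, so leaving out a replicate was not possible either. The alternatives with tubule limits on the comparison, with at least 500 counts per gene, per Slc12a1 count, without Wnk1 and with a ratio of 4 or more in both libraries were chosen after seeing the data. The 20 top-ranked genes, chosen for high lower bounds, ranged from 62.5 to 790 over 310 values, of which 10 left the counting interval of the reported value. Members numbered 100 and 32 with a minimum of 3, 83 and 29 with 6, 85 and 31 after doublet removal. The core list ratio in cortex was 82.2 with a minimum of 6 and 84.6 after doublet removal, and in medulla 113 against depth-matched barcodes. Genes at 2 or more in cortex numbered 1814 with at least 20 counts, 3119 with no minimum and 139 with at least 500, and those at 0.5 or less 3008, 10930 and 365. In medulla, genes at 2 or more numbered 2977 with no minimum and 355 with at least 500, and those at 0.5 or less 5908 with at least 20, 14947 and 915. Against depth-matched barcodes the cortical TAL ratios were 1.17 (claudin 16), 0.367 (macula densa), 1.02 (cortex score, reversed) and 0.985 (medulla score), and the medullary ones 0.815 (cortex score, below 1 where the reported 1.10 had an interval that included 1) and 0.858 (medulla score). With the tubule limits on the comparison, cortical ratios were 0.677 (claudin 10), 1.03 (claudin 16) and 0.779 (cortex score). Per Slc12a1 count, cortical ratios were 0.892 (claudin 10), 1.35 (claudin 16), 1.09 (cortex score, reversed) and 1.15 (medulla score, reversed), and medullary ones 1.03 (claudin 10, reversed), 1.76 (claudin 16), 1.5 (cortex score) and 0.967 (medulla score). Without Wnk1 the medullary claudin 16 ratio was 0.963 (reversed). The cortex to medulla ratio of the core list was 0.421 in members with at most 2 Slc12a1 counts, 0.985 in those with at least 10 and 0.916 after doublet removal. Genes higher in cortical members numbered 14 per core count, 3 with at most 2 and 10 with at least 10 Slc12a1 counts, and 3 among genes at 4 or more in both libraries. Genes higher in medullary members numbered 14, 9 and 19, and 26 after doublet removal. The cause of these shifts was not tested. Depth limits genes with few counts in the 31 medullary members, where 3 counts are 30.8 CPM.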

Other observations

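Gene groups outside the endothelial lists were also high in members, and the lists below were drawn up after the values were seen, so they describe the members only. Interferon-induced genes summed to 589 counts in cortical and 143 in medullary members, at ratios to the comparison barcodes of 10.0 (9.12 to 11) and 11.7 (9.84 to 13.9), and 14 of 15 and 6 of 9 tested genes were at 2 or more, beside 8.19% and 15% of all genes tested. Rsad2, which encodes the antiviral protein viperin, had 67 and 15 counts, at 111 (68.1 to 187) and 99.9 (49.9 to 192). Mndal had 70 and 15, Sp100 60 and 19 and Trim30a 44 and 15.

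The interferon response motif, GAAA followed after any NN by GAAA again and searched on both strands, stood in the promoter windows of 13 of 23 genes of this list (56.5%), of 3.84% of 21770 promoters and of 0 of 27 core endothelial genes. The 150 bases before the Rsad2 start (GRCm39, chr12:26506452-26506601, minus strand) are shown with this motif in capitals, because Rsad2 was among the most abundant genes of the list. Those of Ifi44 (chr3:151455626-151455775, minus strand), of the same list and among the 20 top-ranked genes, are shown beside them and hold no match.
Rsad2: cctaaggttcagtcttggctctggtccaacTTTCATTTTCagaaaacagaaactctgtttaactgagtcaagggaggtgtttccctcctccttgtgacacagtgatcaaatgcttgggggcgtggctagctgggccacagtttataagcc
Ifi44: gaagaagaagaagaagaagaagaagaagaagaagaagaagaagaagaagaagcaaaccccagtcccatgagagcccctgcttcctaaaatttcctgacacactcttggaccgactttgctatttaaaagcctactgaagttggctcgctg

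GIMAP genes, small GTPases known from lymphocytes and endothelium, summed to 115 and 32 counts at 34.5 (26.5 to 44.7) and 46.3 (30.5 to 68.4). Gimap6 had 30 and 12 counts and Gimap4 25 and 10, while Ptprc, the general leukocyte marker, had 1 and 0. Class I histocompatibility genes were at 6.16 (5.20 to 7.25) and 5.44 (3.80 to 7.58). Among guidance receptors Plxnd1, a semaphorin receptor of vessels, was at 76.1 and 137, and the list of semaphorins, plexins and ephrins at 3.97 and 5.73.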
